A study of Mus musculus with 6 samples.

Results

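The receptors for GABA, glutamate and acetylcholine are the proteins by which neurons and muscle fibres respond to these transmitters. The genes studied here were the mouse protein-coding genes on autosomes whose symbols begin with Gabr, Gria, Grik, Grin, Grid, Grm or Chrn followed by a subunit letter or number. The rule found 61 genes, of which 4 lie on the X chromosome (Gabra3, Gabre, Gabrq and Gria3) and were left out because no segment on X was given. The other 57 were all placed, among 20375 placed protein-coding genes. They comprise 16 subunits of GABA-A receptors, 3 of AMPA, 5 of kainate, 7 of NMDA and 2 of delta receptors, 8 metabotropic glutamate receptors and 16 nicotinic acetylcholine receptor subunits.

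GABA-A receptors are chloride channels opened by GABA, the main inhibitory transmitter of the adult brain. AMPA, kainate and NMDA receptors are cation channels opened by glutamate, metabotropic glutamate receptors act through G proteins, and nicotinic receptors are cation channels opened by acetylcholine, at the neuromuscular junction and in neurons. In Hi-C data a chromosome divides into A compartments, which are gene-rich and active, and B compartments, which are gene-poor and mostly inactive, and finer contact patterns divide these into subcompartments.

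Hi-C, which counts contacts between pairs of DNA fragments (here cut with DpnII), was performed on E14 cells (E14TG2a), a male mouse embryonic stem cell line of wild type genotype grown in serum with leukemia inhibitory factor. The cells had received esiRNA, short RNAs made by digesting a long double strand, against Smarca4 (Brg1KD; Smarca4 encodes Brg1, the ATPase of the esBAF remodelling complex), against Ino80 (Ino80KD; the ATPase of the INO80 complex) or against EGFP (control), and were harvested 48 h later. Each group had 2 libraries, and the replicate number is the batch. Nothing in the labels says that the replicates are separate cultures, so p-values measure only the spread between these libraries, which may be technical. The study asked how the 2 complexes bear on subcompartments and on contacts between enhancers and promoters. The files hold no transcript or read counts, so expression of the receptor genes, the extent of each knockdown and the depth of the libraries are not known from them.

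In each library every 50 kb bin carried 1 of 8 labels, given here as ranks from 1 (B.2.2, the deepest in B) to 8 (A.1.1, the deepest in A). Of 48009 bins, 47717 had a label in all 6 libraries, and 62.1 to 71.7% of labels were the same between any pair of libraries. The 2 replicates of a group shared 68.3% of labels in Brg1KD, 69.5% in Ino80KD and 68.9% in control. The highest share, 71.7%, was between replicate 2 of control and replicate 2 of Ino80KD. Replicates of a group thus did not always agree more than libraries of different groups. All 10 genes listed as markers of pluripotent stem cells lay in A in all 6 libraries, 4 of 8 neural markers lay in A and 4 in B in all 6, and 4 of 6 fibroblast markers lay in A in all 6. These labels give the place of a gene, not its transcript level.

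The receptor genes were divided between the 2 ends of the scale. At the bin of the gene's midpoint, 25 of 57 receptor genes (43.9%) lay in A in all 6 libraries, against 67.8% of all protein-coding genes, and 31 (54.4%) lay in B in all 6, against 24.5% of all genes. The remaining gene, Gabrp, lay in A in 2 libraries and in B in 4. The deepest label, B.2.2, was kept in all 6 libraries by 14 receptor genes (24.6%), against 3.11% of all genes. At the other end, 13 receptor genes (22.8%) were A.1.1 in all 6 libraries, against 30.5% of all genes. The median rank was 3 for the receptor genes in each of the 6 libraries and 7 for all genes.

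**Figure D1:**
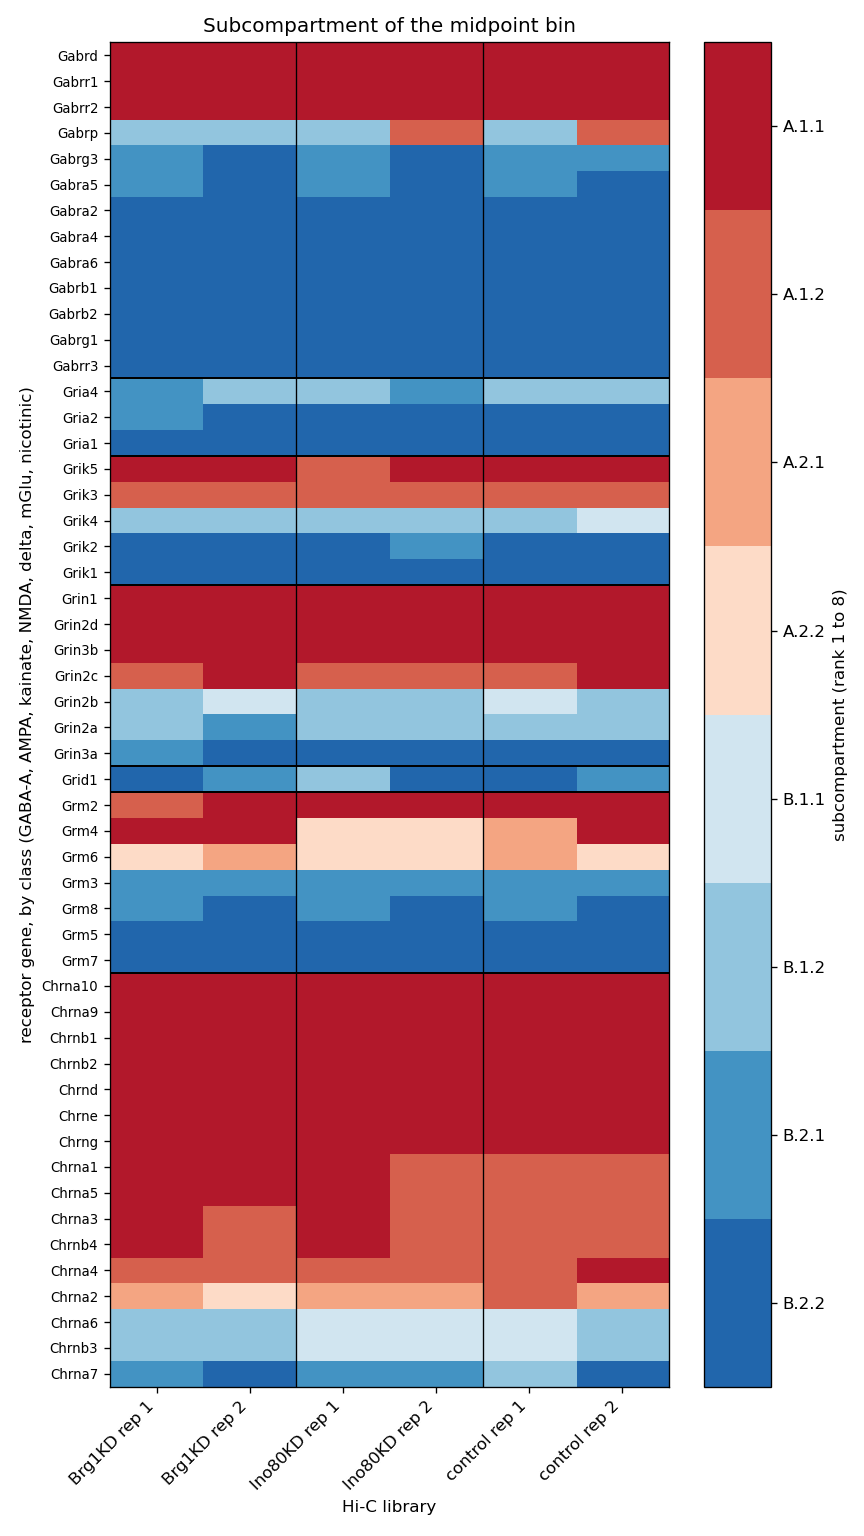
Subcompartment label of the midpoint bin of 52 of the 57 receptor genes (rows, by receptor class, with lines between classes) in each library (columns, Brg1KD, Ino80KD, control). Red is A and blue is B; nicotinic genes are mostly dark red, GABA-A genes mostly dark blue, and many rows hold 1 colour throughout.

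The split went with gene length. The 25 genes in A in all 6 libraries had a median length of 18.1 kb (4.3 to 223.9 kb), and the 31 genes in B in all 6 had a median of 240.1 kb (10.7 kb or more). Of 26 receptor genes under 50 kb, 84.6 to 88.5% lay in A in the 6 libraries, against 72.7 to 73.5% of all genes of that length. Of 12 receptor genes of 50 to 200 kb, 16.7% lay in A in each library, against 73.8 to 76.3% of all genes. Of 19 receptor genes of 200 kb or more, 5.26% lay in A in each library, against 33.1 to 35.3% of all genes. As a description across genes, which are not independent replicates, Spearman's rho between length and mean control rank was -0.694 over the 57 receptor genes and 0.0173 over all genes. The exceptions were few: Grik3, at 223.9 kb, was the only receptor gene of 200 kb or more in A, and Gabra6 (14.6 kb), Chrna6 (10.7 kb) and Chrnb3 (31.0 kb) were short genes in B.

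**Figure D2:**
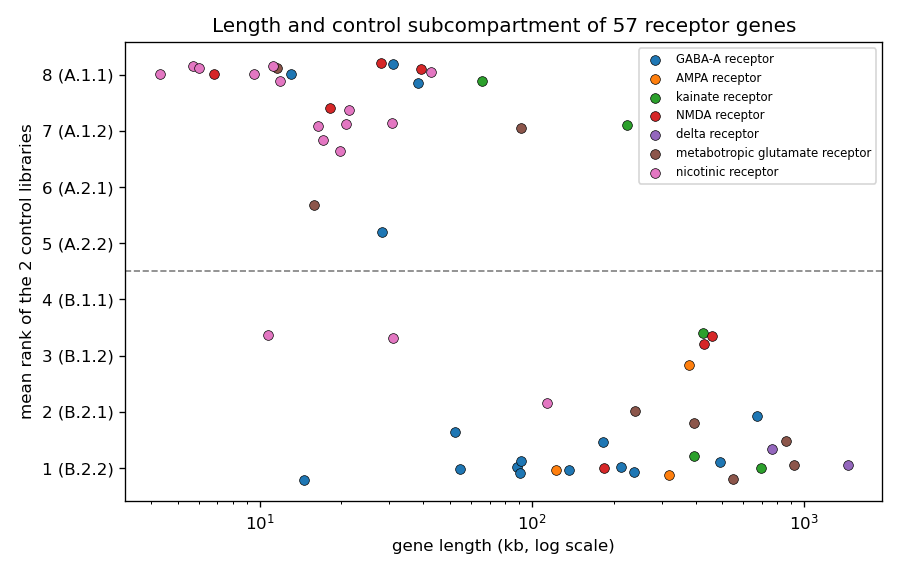
Gene length (kb, log scale) against the mean rank of the 2 control libraries for the 57 receptor genes, coloured by class and shifted slightly up or down so that points can be told apart; the dashed line divides A from B. Short genes gather at ranks 7 and 8, and genes of 200 kb or more, apart from Grik3, lie below the line.

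Receptor genes whose midpoints lay in B often had promoters rich in CG pairs. RefSeq (GRCm38.p6, the assembly that mm10 names) gave a window of 300 bases around the start of transcription for 39 of the 57 genes. CG pairs were counted in it (the motif CG reads the same on both strands). The count was not scaled to the window's content of C and G. The 39 windows held 1 to 50 CG pairs with a median of 12. Of 17 windows of receptor genes in B in all 6 libraries, 14 (82.4%) held 10 or more CG pairs, against 24.6% over all genes in B in all 6. Of 21 windows of receptor genes in A in all 6 libraries, 11 (52.4%) held 10 or more, against 72.5% over all genes in A in all 6. These labels are those of the midpoint bin, and in a long gene the bin of the promoter can differ. The start bin of Grik4, in B at its midpoint, was A.2.1 in both control libraries. That of Grm8 had rank 3 and 4 in the control libraries, against 2 and 1 at its midpoint.

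The 250 bases before the start of transcription are printed for the 9 members with a window whose subcompartment or loops, described further on, differed between groups by the rule for sequences, with each CG pair in capitals. Chrna1 (mm10 chr2:73580339-73580588, minus strand), Chrna5 (chr9:54980630-54980879, plus strand), Chrne (chr11:70619195-70619444, minus strand), Chrna3 (chr9:55026563-55026812, minus strand), Chrnb4 (chr9:55048545-55048794, minus strand) and Gabrr1 (chr4:33132306-33132555, plus strand) lay in A. Grik4 (chr9:42944372-42944621, minus strand), Grm8 (chr6:28135147-28135396, minus strand) and Gabrg3 (chr7:57387216-57387465, minus strand) lay in B at their midpoints. The printed stretches hold 3, 3, 1, 13, 8 and 7 CG pairs for Chrna1, Chrna5, Chrne, Chrna3, Chrnb4 and Gabrr1, and 36, 29 and 9 for Grik4, Grm8 and Gabrg3, so the counts of the genes in A and in B overlap.
Chrna1: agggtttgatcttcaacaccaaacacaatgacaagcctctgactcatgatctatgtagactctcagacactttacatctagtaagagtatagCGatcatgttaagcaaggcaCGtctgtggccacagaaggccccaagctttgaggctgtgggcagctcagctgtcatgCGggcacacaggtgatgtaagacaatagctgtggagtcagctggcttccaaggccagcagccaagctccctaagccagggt
Chrna5: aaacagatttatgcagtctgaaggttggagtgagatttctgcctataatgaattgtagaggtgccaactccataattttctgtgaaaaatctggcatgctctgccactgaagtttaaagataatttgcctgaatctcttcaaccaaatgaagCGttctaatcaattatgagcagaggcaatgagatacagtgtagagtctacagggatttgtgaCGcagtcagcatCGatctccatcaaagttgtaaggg
Chrne: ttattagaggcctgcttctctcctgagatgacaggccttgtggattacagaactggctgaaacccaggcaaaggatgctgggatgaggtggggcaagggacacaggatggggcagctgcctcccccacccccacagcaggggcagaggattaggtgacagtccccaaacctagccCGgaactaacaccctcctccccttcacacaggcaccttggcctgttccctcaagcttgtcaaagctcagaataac
Chrna3: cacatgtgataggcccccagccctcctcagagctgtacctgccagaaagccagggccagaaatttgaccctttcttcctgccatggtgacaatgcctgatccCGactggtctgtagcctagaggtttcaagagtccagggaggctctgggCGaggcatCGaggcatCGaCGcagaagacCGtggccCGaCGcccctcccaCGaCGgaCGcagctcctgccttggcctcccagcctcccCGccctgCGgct
Chrnb4: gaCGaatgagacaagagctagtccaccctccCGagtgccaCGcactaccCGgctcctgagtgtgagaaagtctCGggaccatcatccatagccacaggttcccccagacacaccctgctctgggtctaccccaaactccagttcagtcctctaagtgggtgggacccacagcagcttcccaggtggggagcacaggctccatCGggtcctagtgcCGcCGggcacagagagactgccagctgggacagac
Gabrr1: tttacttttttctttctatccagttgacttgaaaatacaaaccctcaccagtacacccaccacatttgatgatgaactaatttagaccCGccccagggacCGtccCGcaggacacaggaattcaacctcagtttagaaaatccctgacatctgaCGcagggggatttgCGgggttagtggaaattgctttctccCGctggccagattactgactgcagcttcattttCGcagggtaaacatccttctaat
Grik4: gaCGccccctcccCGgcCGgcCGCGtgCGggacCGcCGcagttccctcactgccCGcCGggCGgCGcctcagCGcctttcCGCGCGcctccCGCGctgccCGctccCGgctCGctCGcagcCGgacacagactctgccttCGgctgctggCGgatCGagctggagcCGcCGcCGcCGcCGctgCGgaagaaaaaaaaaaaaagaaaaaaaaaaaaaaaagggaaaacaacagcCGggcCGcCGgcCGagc
Grm8: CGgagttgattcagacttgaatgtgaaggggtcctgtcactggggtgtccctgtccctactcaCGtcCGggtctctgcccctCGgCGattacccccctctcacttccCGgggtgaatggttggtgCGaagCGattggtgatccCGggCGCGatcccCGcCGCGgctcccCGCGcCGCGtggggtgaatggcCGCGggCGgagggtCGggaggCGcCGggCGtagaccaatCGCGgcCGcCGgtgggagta
Gabrg3: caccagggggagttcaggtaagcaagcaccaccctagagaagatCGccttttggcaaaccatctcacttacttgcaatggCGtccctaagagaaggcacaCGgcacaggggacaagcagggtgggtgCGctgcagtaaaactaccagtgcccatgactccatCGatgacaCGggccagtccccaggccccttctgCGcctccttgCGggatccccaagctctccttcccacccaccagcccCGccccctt

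**Figure D3:**
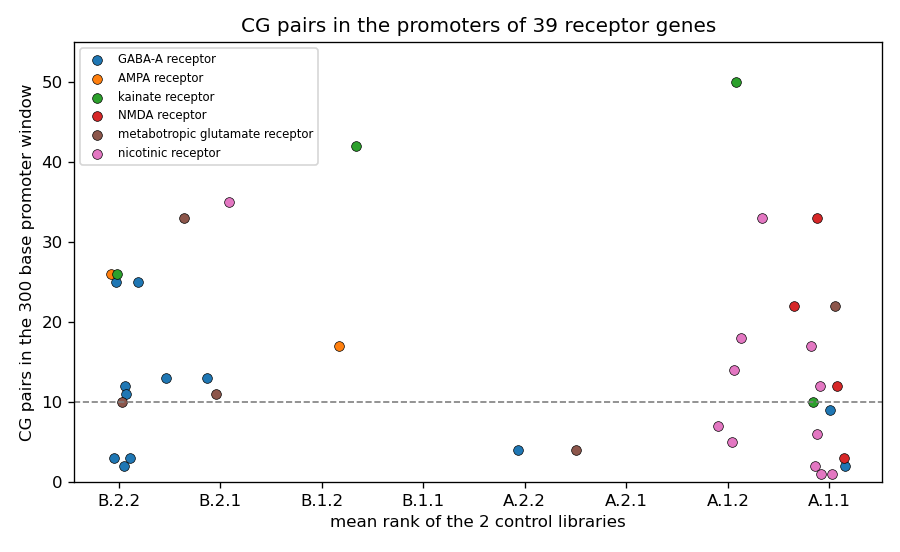
CG pairs in the 300 base promoter window (vertical axis) of the 39 receptor genes with a window, against the mean rank of the 2 control libraries (shifted slightly sideways so that points can be told apart), coloured by class. The rank is that of the gene's midpoint bin. The dashed line marks 10 pairs, and 14 of the 17 genes in B at their midpoints in all 6 libraries lie on or above it.

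Among the GABA-A subunits, 12 of 16 lay in B in all 6 libraries, and 10 to 12 were B.2.2 in each. Only Gabrd, whose delta subunit forms receptors outside synapses, and Gabrr1 and Gabrr2, whose rho subunits form retinal receptors, were A.1.1 in all 6 libraries. Many genes of the synaptic alpha, beta and gamma subunits lie in clusters. The chromosome 5 cluster (Gabrg1, Gabra2, Gabra4 and Gabrb1; chr5:70751047-72149572) spans 28 bins, of which 100 and 100% were B.2.2 in the Brg1KD libraries, 96.4 and 100% in the Ino80KD libraries, and 96.4 and 100% in the control libraries. This cluster stayed at the bottom of the scale in every library. On chromosome 11, Gabra6, whose subunit is found in cerebellar granule cells, and Gabrb2, a beta subunit, were B.2.2 in all 6 libraries at their midpoints.

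On chromosome 7, the midpoint labels of the neighbours Gabrg3 and Gabra5 differed mostly by replicate number. Gabrg3, encoding a gamma subunit, had rank 2 and 1 in the Brg1KD libraries, 2 and 1 in the Ino80KD libraries, and 2 and 2 in the control libraries, so its groups overlapped. Gabra5, which encodes an alpha subunit abundant in the hippocampus, was B.2.1 in replicate 1 and B.2.2 in replicate 2 of every group. Gabrr3, the third rho gene, was B.2.2 at its midpoint in all 6 libraries, but 21.6% of its body, at the upper end, lay in A in each.

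The AMPA receptor genes, whose channels carry fast excitation, lay in B in all 6 libraries. Gria1 (318.7 kb) was B.2.2 over its whole body in all 6. Gria2 was B.2.1 in Brg1KD replicate 1 and B.2.2 in the other 5 libraries. Gria4 had rank 2 and 3 in the Brg1KD libraries, 3 and 2 in the Ino80KD libraries, and 3 and 3 in the control libraries, so its groups overlapped.

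Of the kainate receptor genes, Grik5, encoding a high-affinity subunit, was A.1.1 in 5 libraries and A.1.2 in Ino80KD replicate 1, and Grik3 was A.1.2 in all 6. Grik1 and Grik2 were B.2.2 at the midpoint in all 6 libraries, except for B.2.1 at Grik2 in Ino80KD replicate 2. Grik4 encodes the other high-affinity kainate subunit and lay in B at its midpoint in all 6 libraries.

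The NMDA receptor genes were split by subunit. Grin1, the subunit that every NMDA receptor needs, was A.1.1 in all 6 libraries, as were Grin2d and the glycine-binding Grin3b, and Grin2c was A.1.1 or A.1.2. The genes Grin2a and Grin2b, of the main glutamate-binding subunits of the forebrain, and Grin3a lay in B in all 6 libraries at their midpoints. Grid1, of the delta receptors, had rank 1 and 2 at its midpoint in the Brg1KD libraries, 3 and 1 in the Ino80KD libraries, and 1 and 2 in the control libraries.

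Of the metabotropic receptor genes, Grm2, a presynaptic inhibitory receptor, was A.1.1 in 5 libraries and A.1.2 in Brg1KD replicate 1. Grm6, the glutamate receptor of retinal ON bipolar cells, was A.2.2 and A.2.1 in the Brg1KD libraries, A.2.2 in both Ino80KD libraries, and A.2.1 and A.2.2 in the control libraries. Grm5, which couples to phospholipase C, was B.2.2 over its whole body in all 6 libraries. At its midpoint Grm8 was B.2.1 in replicate 1 and B.2.2 in replicate 2 of every group, the same labels as Gabra5.

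The nicotinic genes formed the class most often in A: 13 of 16 lay in A in all 6 libraries. The 5 muscle subunit genes were all in A.1.1 or A.1.2, and Chrnb1, Chrnd, Chrne and Chrng were A.1.1 in all 6 libraries. Chrna9 and Chrna10, whose subunits form the receptor of cochlear hair cells, and Chrnb2, the common beta subunit of brain receptors, were also A.1.1 in all 6. Chrna7, which forms receptors without other subunits, was the lowest, with rank 2 and 1 in the Brg1KD libraries, 2 and 2 in the Ino80KD libraries, and 3 and 1 in the control libraries. The neighbours Chrnb3 and Chrna6, whose subunits are found in dopaminergic neurons, were the other 2 in B.

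Most members stayed within 1 class over the 6 libraries. Of the 57 genes, 29 (50.9%) had 1 label in all 6 libraries, against 44.8% of all genes, and 5 (8.77%) ranged over 2 classes or more, against 10.8% of all genes. Both replicates carried the same label for 40 receptor genes in Brg1KD, 45 in Ino80KD and 42 in control.

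The comparison of Brg1KD with control asked whether knockdown of Brg1 moved receptor genes between subcompartments. A shift is the difference between the mean ranks of 2 groups, in classes, positive towards A. Of the 57 genes, 8 had a shift towards A, 12 towards B and 37 none; the median shift was 0 for the receptor genes and 0 for all genes. Limma, fitted to all bins with Benjamini-Hochberg adjustment, called no receptor gene at its midpoint (0 of 57, and 0 at an unadjusted p under 0.05), where 3.48% of all genes were called and 4.26% had an unadjusted p under 0.05. Over the gene body it called 0 of 57, with 1 at an unadjusted p under 0.05, where 3.35% of all genes were called and 4.68% had such a p. These p-values are not calibrated, since 18941 bins had the same rank within every group and so no residual spread. With 1 variance common to all bins, limma called 1 receptor gene (Gabrp) at the midpoint, where 2.73% of all genes were called, and the same gene over the body, where 2.21% were.

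Without a model, 2 receptor genes had Brg1KD libraries that both lay beyond both control libraries, where 7.63% of all genes did: Chrna1, the alpha subunit of the muscle receptor, and Chrna5, an accessory subunit of neuronal receptors. Chrna1 was A.1.1 and A.1.1 in the Brg1KD libraries, A.1.1 and A.1.2 in the Ino80KD libraries, and A.1.2 and A.1.2 in the control libraries. Its shift between Brg1KD and control was 1 class with an SE of 0.386 (limma adjusted p = 0.733, n = 2 libraries each). Neither of these groups had spread between its libraries, so the residual spread in the fit came from the Ino80KD libraries alone. Around Chrna1, a segment of A.1.1 of 700 kb (chr2:72900001-73600000) was given in both Brg1KD libraries, and a segment of A.1.2 of 500 kb in both control libraries. Chrna5 had the same labels as Chrna1 in all 6 libraries, with the same shift and adjusted p. Its neighbours Chrna3 and Chrnb4, which share 1 bin and encode the ganglionic subunits, were A.1.1 and A.1.2 in the Brg1KD libraries, and A.1.2 and A.1.2 in the control libraries, so for them the groups overlapped.

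Gabrp encodes the pi subunit, found mostly outside the brain. It was B.1.2 and B.1.2 in the Brg1KD libraries, B.1.2 and A.1.2 in the Ino80KD libraries, and B.1.2 and A.1.2 in the control libraries. The Brg1KD shift against control was -2 classes with an SE of 2.19 (limma adjusted p = 0.906; 0.00207 with a common variance). It was 0 classes within batch 1 and -4 within batch 2, and the groups overlapped. The gene lies beside a border between A.1.2 and B.1.2 or B.2.1, and its B.1.2 segment began at chr11:33550001 in 4 libraries, while in Ino80KD replicate 2 and control replicate 2 the A.1.2 segment reached chr11:33600000, a difference of 1 bin.

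At the start of transcription, known for 39 members, Grik4 stood apart. Its start bin was B.1.2 and B.1.1 in the Brg1KD libraries, B.1.2 and A.2.2 in the Ino80KD libraries, and A.2.1 and A.2.1 in the control libraries. Both knockdowns lay below both control libraries, by -2.5 classes in Brg1KD (limma adjusted p = 0.733; 3.11e-05 with a common variance) and by -2 classes in Ino80KD (limma adjusted p = 0.97; 0.00371 with a common variance). The knockdowns share the control libraries, so these are not independent. Of the 39 members, 3 had start bins that did not overlap between Brg1KD and control (Chrna1, Chrna5 and Grik4), where 7.47% of genes did, and 1 (Grik4) between Ino80KD and control, where 4.86% did. The share of the body of Grik4 in A was 0 and 7.45% in the Brg1KD libraries, 7.45 and 29.7% in the Ino80KD libraries, and 29.7 and 29.7% in the control libraries. In Brg1KD replicate 1 and Ino80KD replicate 1 the B.1.2 segment of the gene ended at chr9:42950000, just past the start of transcription at chr9:42944371 (RefSeq).

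**Figure D4:**
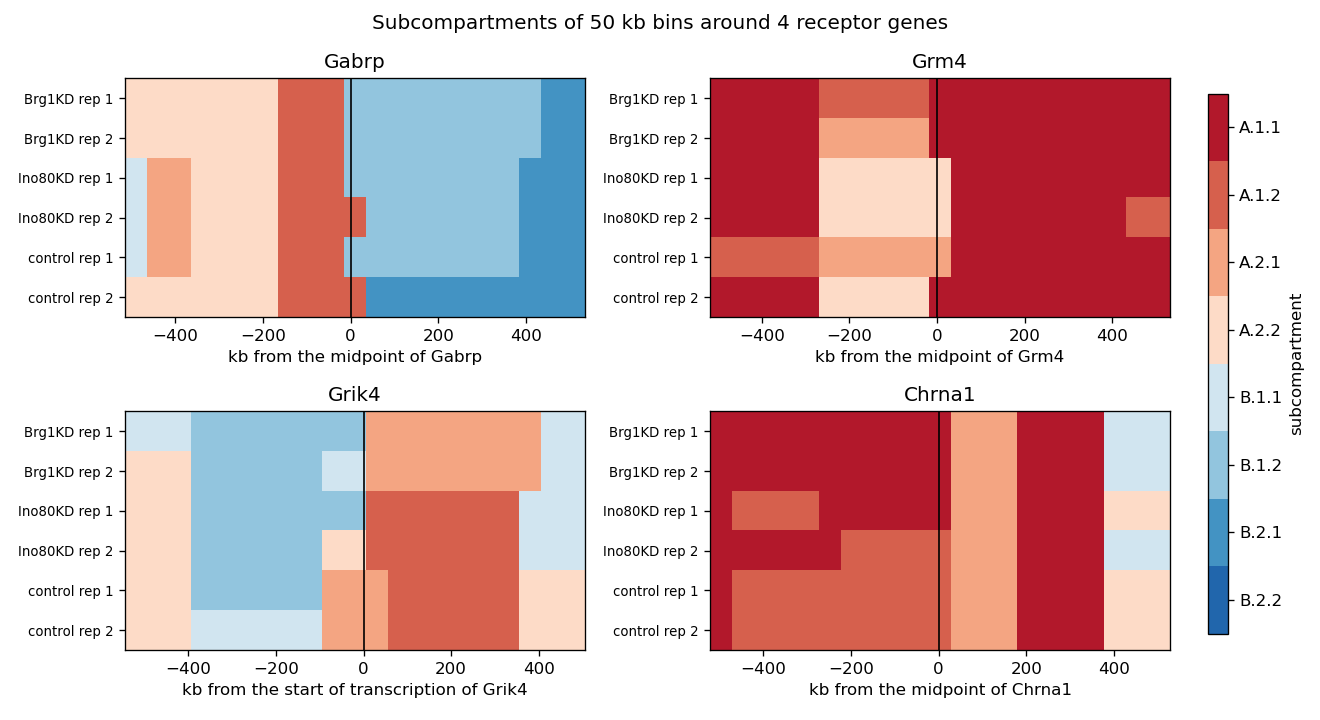
Subcompartments of the 50 kb bins around Gabrp, Grm4 and Chrna1 (kb from the gene's midpoint) and Grik4 (kb from its start of transcription), in the direction of the chromosome's numbering, with a row for each library and the line at 0 marking the gene. At Gabrp and Grm4 a border beside the gene moves by 1 bin between libraries, and at Grik4 the bins just left of the start are A.2.1 only in the 2 control libraries.

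Mean ranks over the gene body did not overlap between Brg1KD and control for 12 members, 6 higher and 6 lower in Brg1KD, where 9.47% of all genes did not overlap. Of the 12, 8 were 200 kb or longer, out of 19 members of that length, and over all genes of that length 28.5% did not overlap. Long bodies have means with more steps, and 24 of 57 receptor genes had no shift over the body, against 37 at the midpoint. Those higher in Brg1KD included Chrna1, Chrna5, Grin3a, Grik1 and Grm4, and lower were Grm7, Grin2b, Grik4, Grik2, Grid1 and Grin2a. Grm7, a presynaptic receptor, had a mean of 1 and 1 in the Brg1KD libraries, and 1.43 and 1.22 in the control libraries, through a stretch near its upper end that was B.2.2 in both Brg1KD libraries (adjusted p = 0.578 by limma, the lowest of the members). Grin2a had a mean of 3 and 2.22 in the Brg1KD libraries, and 3.31 and 3.11 in the control libraries (limma adjusted p = 0.971).

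**Figure D5:**
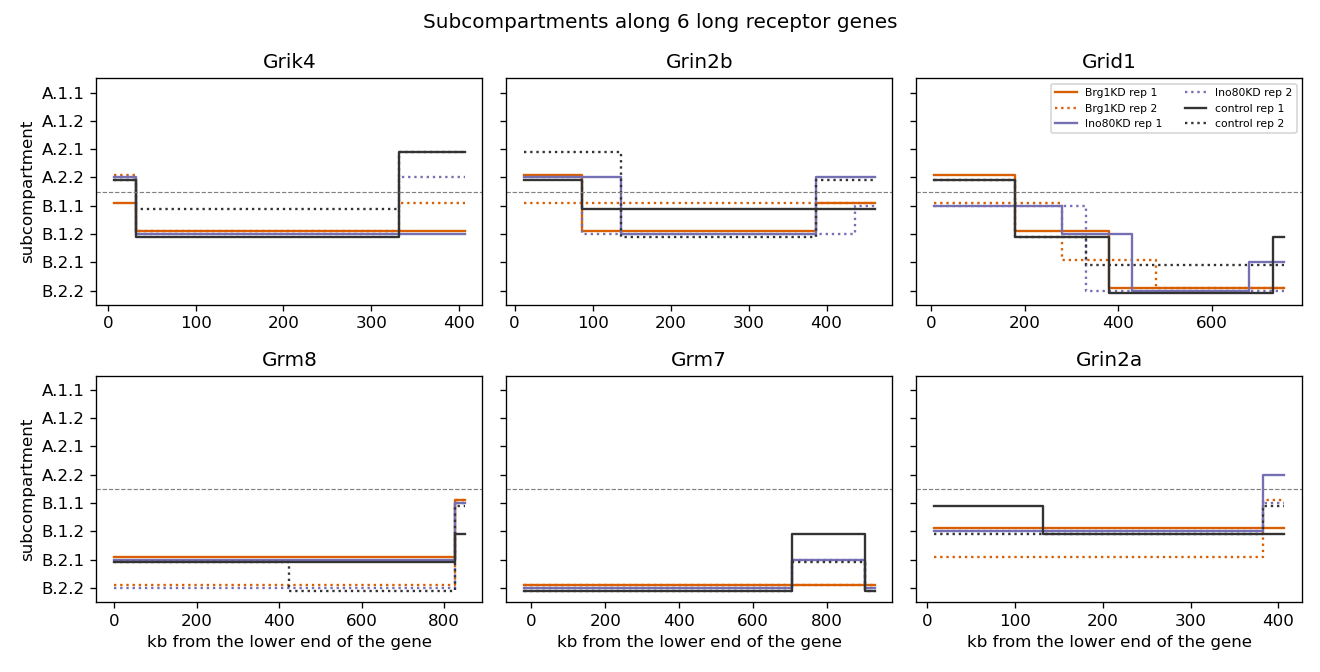
Subcompartments along 6 long receptor genes (kb from the lower end of the gene), with a line for each library, solid for replicate 1 and dotted for replicate 2; lines are set slightly apart so that they can be told apart. The upper end of Grik4 lies above the dashed line between A and B in both control libraries and in neither Brg1KD library. Over most of Grm8 replicate 2 lies below replicate 1 in both knockdowns, and in control this holds only in part of the gene.

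The comparison of Ino80KD with control asked the same of Ino80. At the midpoint 8 receptor genes had a shift towards A, 11 towards B and 38 none, with a median of 0 for the receptor genes and 0 for all genes. Limma called 0 of 57 (0 at an unadjusted p under 0.05), where 2.47% of all genes were called and 2.93% had such a p, and with a common variance 1 (Grm4), where 0.741% were. Over the gene body it called 0 of 57 (2 at an unadjusted p under 0.05), where 2.4% of all genes were called and 3.26% had such a p. With a common variance it called 0 of 57 (1 at an unadjusted p under 0.05), where 1.57% were called and 7.05% had such a p. The groups did not overlap for 1 member, Grm4, where 4.82% of all genes did not overlap.

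Grm4 encodes a presynaptic glutamate receptor of group III. It was A.1.1 and A.1.1 in the Brg1KD libraries, A.2.2 and A.2.2 in the Ino80KD libraries, and A.2.1 and A.1.1 in the control libraries. Both Ino80KD libraries lay below both control libraries, and the gene stayed in A throughout. The shift was -2 classes with an SE of 0.773 for Ino80KD against control (limma adjusted p = 0.97; 0.00371 with a common variance) and 1 class for Brg1KD against control (limma adjusted p = 0.808). Within batches 1 and 2 it was -1 and -3 classes for Ino80KD and 2 and 0 classes for Brg1KD. The A.1.1 segment that holds the gene's upper end began at chr17:27450001 in both Brg1KD libraries and control replicate 2. In both Ino80KD libraries and control replicate 1 the midpoint lay in a lower segment that ended at chr17:27500000, a difference of 1 bin.

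Over the gene body, 5 members did not overlap between Ino80KD and control, where 6.04% of all genes did not: 2 were higher in Ino80KD, among them Grik3, and Grin2b, Grik4 and Grm4 were lower. Of these, 4 were 200 kb or longer, and over all genes of that length 16.2% did not overlap. Grik3 had a mean of 7 and 7 in the Ino80KD libraries, and 6.94 and 6.71 in the control libraries (limma adjusted p = 1).

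Between the knockdowns, 10 receptor genes had a higher rank in Brg1KD, 9 a lower and 38 the same, and the median was 0. Limma called 0 of 57 at the midpoint (1 at an unadjusted p under 0.05), where 2.73% of all genes were called and 3.61% had such a p, and 0 over the body (2 at an unadjusted p under 0.05), where 2.68% were called and 4.04% had such a p. With a common variance it called Gabrp and Grm4 at the midpoint, where 1.11% of all genes were called, and both over the body, where 2.44% were. The groups did not overlap for 3 members, where 7.18% of all genes did not: Grm4 was 3 classes higher in Brg1KD (limma adjusted p = 0.503; 1.27e-07 with a common variance), 3 in each batch, and Chrnb3 and Chrna6 were 1 class lower. Chrnb3 was B.1.2 and B.1.2 in the Brg1KD libraries, B.1.1 and B.1.1 in the Ino80KD libraries, and B.1.1 and B.1.2 in the control libraries (limma adjusted p = 0.866 between the knockdowns). Chrna6, in the same segment, had the same labels. At Grm4, Chrnb3 and Chrna6 neither knockdown had spread between its libraries, so the residual spread in the fit came from the control libraries alone. Over the body 10 members did not overlap, 2 higher and 8 lower in Brg1KD, where 8.86% of all genes did not. Of the 10, 4 were among the 19 members of 200 kb or longer, and 23.0% of all genes of that length did not overlap. The others were 3 of 26 members under 50 kb and 3 of 12 of 50 to 200 kb, beside 7.12 and 12.6% of all such genes. Of the 39 start bins 0 did not overlap, where 6.86% of genes did not.

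Loops are pairs of 10 kb anchors that touch more often than their surroundings. The authors gave 1 merged list for each group, with 6013 loops for Brg1KD, 5475 for Ino80KD and 5903 for control and no score, so differences between lists have no replicate check. An anchor lay over an end of 12 receptor genes (21.1%) in Brg1KD, where 11.7% of all genes had one, of 14 (24.6%) in Ino80KD, where 11.3% had one, and of 12 (21.1%) in control, where 11.7% had one. The receptor share was above that of all genes in both compartments, in sets that were not matched for gene length. For members in A in all 6 libraries it was 24.0% in Brg1KD, 32.0% in Ino80KD and 28.0% in control, beside 13.0, 12.6 and 12.9% of all such genes. For members in B in all 6 it was 19.4, 19.4 and 16.1% in the same order, beside 7.54, 7.34 and 7.58%. With anchors within 10 kb of an end counted too, the share of all 57 members was 35.1% in Brg1KD, 36.8% in Ino80KD and 31.6% in control, beside 27.8, 26.6 and 27.7% of all genes, a smaller excess. At the start of transcription 7, 7 and 6 of 39 members had an anchor in Brg1KD, Ino80KD and control, where 5.92, 6.02 and 5.9% of genes had one.

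In all, 16 members had a loop at an end in any list, of which 8 were nicotinic genes, and 11 had one in all 3 lists: Chrna1, Chrna9, Chrnb2, Chrnb3, Chrne, Gabrg3, Gabrr1, Grid1, Grik4, Grin2a and Grm4. The lists held 18 such loops in Brg1KD, 17 in Ino80KD and 16 in control. Of the 18 in Brg1KD, 10 (55.6%) were identical in control and 14 (77.8%) had both anchors within 10 kb of a control loop, against 44.9 and 75.6% of all Brg1KD loops. Of the 17 in Ino80KD, 10 (58.8%) were identical in control and 15 (88.2%) within 10 kb, against 50.0 and 81.0% of all Ino80KD loops.

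The longest loops were shared. The loop of Grin2a spanned 1110 kb (anchors chr16:8880001-8890000 and chr16:9990001-10000000) and was identical in the 3 lists. From the start of transcription of Grik4 a loop of 620 kb reached an end of Tecta, a gene of the tectorial membrane of the inner ear, in all 3 lists, while its start bin had a lower label in both knockdowns than in control. A second loop joined the start of Grik4 to its own body over 390 kb in Brg1KD and Ino80KD and 380 kb in control. Gabrg3 likewise joined its start to its own body, over 420 kb in Brg1KD, 430 kb in Ino80KD and 420 kb in control. The loop at the start of Gabrr1 spanned 150 kb in Brg1KD and 160 kb in Ino80KD and control. Chrna1 was joined by 1100 kb to the ends of Evx2 and Hoxd13, developmental regulators at the HoxD cluster, in Brg1KD and Ino80KD, and a control loop lay within 10 kb of it. The start of Chrna1 was joined by 190 kb to Chn1 in Brg1KD and control, with an Ino80KD loop within 10 kb.

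A few loops had no counterpart within 10 kb in one or both of the other lists. Grm4 had 3 loops in Brg1KD, 2 in Ino80KD and 1 in control, all from the anchor chr17:27510001-27520000 at its upper end. Those of Brg1KD spanned 350, 290 and 130 kb, those of Ino80KD 370 and 310 kb, and that of control 320 kb. The 3 of Brg1KD and the 370 kb loop of Ino80KD had no counterpart in either other list. The 350 kb loop of Brg1KD and the 370 kb loop of Ino80KD both reached an end of Ip6k3, at far anchors starting at chr17:27160001 and chr17:27140001. Grm8 was joined to its own body over 480 kb in Brg1KD alone. Chrne was joined over 90 kb to the ends of Gltpd2 and Psmb6 in control alone. An anchor over ends of both Chrna3 and Chrnb4 had a loop of 90 kb in Ino80KD, with one within 10 kb in Brg1KD and none in control. Chrna2 was joined over 170 kb to the ends of Clu and Gulo in control, with a loop within 10 kb in Ino80KD and none in Brg1KD.

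Other genes of the same synapses were followed as 3 lists at their midpoints, where of all genes limma called 3.48% (Brg1KD against control), 2.47% (Ino80KD against control) and 2.73% (Brg1KD against Ino80KD), and 7.63, 4.82 and 7.18% did not overlap. Of 12 placed genes of other receptors, 5 lay in A and 5 in B in all 6 libraries, limma called 0 in each of the 3 comparisons, and 1 did not overlap between Brg1KD and control: Gabbr2, a subunit of the GABA-B receptor, which was A.2.2 and A.2.2 in the Brg1KD libraries, and B.1.1 and B.1.1 in the control libraries (limma adjusted p = 0.733). Of 32 placed auxiliary subunits and scaffolds, 20 lay in A and 7 in B in all 6 libraries, and limma called 2 between Brg1KD and control, both lower in Brg1KD, 0 between Ino80KD and control, and the same 2 between Brg1KD and Ino80KD. These were the adjacent genes Cacng4 and Cacng5, whose products are auxiliary subunits of AMPA receptors, each B.1.1 and B.1.1 in the Brg1KD libraries, A.2.2 and A.2.2 in the Ino80KD libraries, and A.2.2 and A.2.2 in the control libraries. Their adjusted p was 8e-08 by limma and 0.236 with a common variance for Brg1KD against control. Between the knockdowns 3 of the 32 did not overlap, these 2 and Gsg1l, an auxiliary subunit of AMPA receptors, which was A.2.1 and A.2.1 in the Brg1KD libraries, and A.2.2 and A.2.2 in the Ino80KD libraries (limma adjusted p = 0.866). Of 22 genes for synthesis, transport and breakdown of transmitters, 14 lay in A and 7 in B in all 6 libraries. Limma called 0 of them between Brg1KD and control, and 1 each between Ino80KD and control and between the knockdowns: Bche, which encodes butyrylcholinesterase, was B.2.2 and B.2.2 in the Brg1KD libraries, B.2.1 and B.2.1 in the Ino80KD libraries, and B.2.2 and B.2.2 in the control libraries (limma adjusted p = 1.2e-07 for Ino80KD against control; 0.362 with a common variance). The median shift of each of the 3 lists was 0 in each comparison, as it was for all genes.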

How the data were processed

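Per the labels, 6 Hi-C libraries of E14 cells were made in 2 batches, and the replicate number is the batch. The authors deposited, for each library, segments named by subcompartment, each with a score that rises in 8 equal steps from B.2.2 to A.1.1 and is relative to that library. Positions are on mm10. The loop lists give only anchor positions; they are recorded with replicate 2 and were taken as merged over both libraries. Per the submitters' processing notes, BWA, SAMtools, Juicer 2.0, HOMER and bedtools were used. The callers of subcompartments and loops and their thresholds are not given in the sources used here, and depth is unknown.

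Segments were cut into 50 kb bins. Genes were placed by RefSeq coordinates (GRCm38.p6) at their midpoint, over their body (mean rank weighted by overlap) and, where a promoter window gave the strand, at the start of transcription. The ranks of all 6 libraries went into a limma fit on the 3 groups (version 3.58.1, run in R 4.3.3), with eBayes and a threshold of 0.05 after Benjamini-Hochberg adjustment over all bins or genes; 18941 of 47717 bins and 9186 of 20375 gene bodies had no residual spread, so a common variance was an alternative. Where both groups compared had no spread but the remaining group did, the residual spread in the fit came from the remaining group. The fit was tested on simulated data. A loop was at a gene when a 10 kb anchor covered an end. The batch numbers pair the libraries, since the labels name them as batch; deviations from group means correlated by 0.0984 (Brg1KD and control), 0.102 (Ino80KD and control) and 0.0885 (Brg1KD and Ino80KD).

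Members, lists and tests were chosen with earlier results of these data known. Any member could be named, and single results of 5 members are not reported here; sequences were those of members with a window that had a called shift, groups that did not overlap by 1 class or more, or loops that differed between lists. Of the other lists up to 4 genes with the largest shifts could be named, of which those called or not overlapping in a comparison are given. Alternatives were a common variance, batch as a block, only the groups compared, each library left out, the gene body or start bin in place of the midpoint, and other rules for loops at a gene.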

Additional observations from a re-analysis of the deposited data

Results flagged for a closer look

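At 3 members every Brg1KD library lay on one side of every Ino80KD library while the shifts of the knockdowns against control had opposite signs. Of the 57 members 5.26% did not overlap between the knockdowns at the midpoint, where 7.18% of all genes did not. The share of all genes that also had opposite signs is not given here. At Grm4 the shift was 1 class in Brg1KD and -2 classes in Ino80KD, a difference of 3 classes between the knockdowns. The direct comparison did not pass (limma adjusted p = 0.503), and passed with a common variance (1.27e-07). Neither knockdown had spread between its libraries at Grm4, so the residual spread in the limma fit came from the control libraries. At Chrnb3 the shift was -0.5 classes in Brg1KD and 0.5 classes in Ino80KD, a difference of -1 class (limma adjusted p = 0.866; 0.269 with a common variance). Chrna6 lies in the same segment as Chrnb3 and had the same values, so the 2 genes are 1 observation. Both knockdowns share the control libraries.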

How the results depend on the processing

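With batch as a replicate block, limma called 0 receptor genes in each of the 3 comparisons, at the midpoint and over the body, as without it. With a common variance it called 1 (Brg1KD against control), 1 (Ino80KD against control) and 2 (Brg1KD against Ino80KD) at the midpoint, and 1, 0 and 2 over the body. With only the groups compared in the fit, it called 2, 0 and 3 at the midpoint (5.94, 3.89 and 5.34% of all genes), and 1, 0 and 4 over the body (5.62, 3.74 and 5.22%). With 1 library left out, the fit called 1 to 4, 0 to 6 and 1 to 4 at the midpoint, and 1 to 3, 0 to 4 and 1 to 4 over the body, where 5.94 to 9.30, 3.89 to 8.32 and 5.34 to 8.26% of all genes were called at the midpoint, and 5.62 to 9.08, 3.74 to 8.11 and 5.22 to 8.17% over the body. The most were called between Brg1KD and control without Brg1KD replicate 2 (4), and between Ino80KD and control without control replicate 1 (6). Each of the 6 libraries left out moved the counts between Brg1KD and control and between the knockdowns, and each Ino80KD or control library left out moved those between Ino80KD and control. Leaving out a library puts the lone sample of its group at no residual, assumed to vary like the other groups; other causes were not tested. Of 36 shifts of 17 named genes run under these settings, those of 10 genes added after seeing the data, 4 reversed, each of 0.5 classes or less with all libraries: with 1 library left out, Grid1 ranged from -0.5 (without Ino80KD replicate 1) to 1.5 between Ino80KD and control and from -1.5 to 0.5 (without Ino80KD replicate 1) between the knockdowns, the start bin of Grik4 from -1.5 to 0.5 (without Ino80KD replicate 2) between the knockdowns, and the body of Grin2a from -0.147 to 0.0538 between Ino80KD and control, above 0 without Ino80KD replicate 2 (0.0072) or control replicate 1. The receptor genes whose groups did not overlap at the midpoint were 2, 1 and 3; over the body they were 12, 5 and 10, at the start bin 3, 1 and 0, and with 1 library of the compared groups left out 5 to 9, 4 to 8 and 5 to 9 (15.7 to 18.0, 11.8 to 15.6 and 14.7 to 16.9% of all genes), since fewer libraries make a lack of overlap easier. With anchors within 10 kb of an end, 20, 21 and 18 members had a loop in Brg1KD, Ino80KD and control (27.8, 26.6 and 27.7% of all genes), and with anchors over the start of transcription 7, 7 and 6. The median shift was 0 under each setting run. A shift of 1 class is the smallest step that a label can make, the borders of segments are known only to 50 kb, and 2 libraries a group set the precision.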
